A study of Homo sapiens with 9 samples.

Results

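The prostate kallikrein locus on chromosome 19 was read here from 9 lists of open chromatin in 22Rv1 cells, a human prostate carcinoma line. The locus was taken as the window chr19:51280000-51440000 (hg19), 160 kb long, which holds the genes KLK1, KLK15, KLK3, KLK2 and KLK4. Peaks of the 9 lists that shared at least 1 bp were merged into regions, and the 31 regions that overlapped the window are described, of 128994 regions in all. The rule that picks the regions uses their position only.

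The cells in every library had been edited to express the C1111S form of SF3B1, a core subunit of the spliceosome. WX-02-23 and WX-02-43, which the labels call stereoprobes, were each given at 20 µM for 3 h to 3 samples, and DMSO, the vehicle, was given at 0.1% for 3 h to 3 samples. The labels do not say whether the edited cells are 1 clone, nor whether the samples came from separate cultures, so p-values below measure only the spread between these samples. Unedited cells were not analysed here. Chromatin was profiled by ATAC-seq, in which a transposase cuts accessible DNA, and each list was called on 1 library.

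The kallikreins are secreted serine proteases whose genes lie side by side. KLK3 encodes prostate-specific antigen, which liquefies the seminal clot and is measured in blood as a marker of prostate disease, and KLK2 encodes a close relative that can cleave the precursor of prostate-specific antigen. Both are known targets of the androgen receptor in prostate epithelium, where the pioneer factor FOXA1 opens chromatin for it. KLK4 encodes a protease of prostate and of developing enamel, KLK1 encodes tissue kallikrein, which releases kinins from kininogen, and KLK15 encodes another member of the family. In the RefSeq gene table the genes stand along the chromosome as KLK1, KLK15, the long non-coding RNA gene LOC105372441, KLK3, KLK2, the pseudogene KLKP1 and KLK4.

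The promoters of KLK3 and KLK2 are shown because they belong to the best known androgen-regulated genes of the locus and differ at a hexamer that the androgen receptor can bind. They come from RefSeq on GRCh38.p14, and each gives the 250 bases before the transcription start, on the plus strand, for KLK3 at chr19:50854665-50854914 and for KLK2 at chr19:50873189-50873438. These coordinates belong to another build than the peaks and were not converted. Capitals mark that hexamer, AGAACA, which is one side of the androgen response element in the form searched for below.
KLK3 promoter: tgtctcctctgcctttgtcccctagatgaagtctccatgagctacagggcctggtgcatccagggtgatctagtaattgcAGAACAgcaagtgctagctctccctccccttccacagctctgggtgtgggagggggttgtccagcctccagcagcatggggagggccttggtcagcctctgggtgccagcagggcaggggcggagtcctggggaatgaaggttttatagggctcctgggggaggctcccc
KLK2 promoter: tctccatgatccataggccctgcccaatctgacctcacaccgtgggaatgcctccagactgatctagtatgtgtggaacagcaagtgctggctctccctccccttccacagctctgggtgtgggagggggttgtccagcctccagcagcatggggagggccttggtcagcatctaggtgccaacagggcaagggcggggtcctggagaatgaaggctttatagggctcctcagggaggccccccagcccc
Taken with the 50 bases after the start, which are not shown, the promoters aligned over 244 bases. Of these, 217 (88.9%) were identical, with a longest identical run of 80 bases. KLK3 held AGAACA at position −170 from the transcription start, and KLK2 did not hold these exact letters. That does not show that KLK2 lacks an androgen response element. The 15 bases that begin at the hexamer show the difference, with the base that differs in capitals.
KLK3, chr19:50854745-50854759: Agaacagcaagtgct
KLK2, chr19:50873263-50873277: Ggaacagcaagtgct
Counted from 1 at the first of these bases, with the KLK3 base given before the KLK2 base, the substitution is A1G, and the stretch begins at −170 in KLK3 and at −176 in KLK2.

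RefSeq promoters were found for 4 of the 5 genes (KLK15, KLK3, KLK2 and KLK4), 6 promoters in all, each with 250 bases before and 50 bases after the start. They were searched on both strands for 7 motifs, and the hexamer in KLK3 was the only match. AGAACA occurred in 14.8% of the 35116 promoters of the table. The androgen response element in the form searched for (AGAACA, then any 3 bases, then TGTTCT, which contains the hexamer) occurred in 0.00285% of them. The forkhead motifs TGTTTAC and TATTTAC occurred in 3.42% and 2.67%. The HOX motif TTTATTG occurred in 4%, the GATA motif AGATAAG in 2.68% and the ETS motif CCGGAAG in 10.3%. Only exact letters were searched, so forms of an element that differ in some bases were not counted. The absence of a match says only that these letters are not in these windows. The sequence under the peaks was not analysed, and regions were not assigned to single genes, because no genome or annotation of hg19 was used here.

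Open chromatin in the locus was shared by most libraries. Of the 31 regions, 19 (61.3%) had a peak in all 9 libraries and 2 (6.5%) had one in a single library. Over all 128994 regions, 46.2% had a peak in all 9 libraries and 16.5% in a single one. Windows of the same length on both sides held 20 regions each, of which 45.0% on the side of lower coordinates and 40.0% on the side of higher coordinates were held by all 9. The locus regions had a median width of 562 bp, against 366 bp over all regions. Below, a region is named by the distance of its start from the start of the window.

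**Figure D1:**
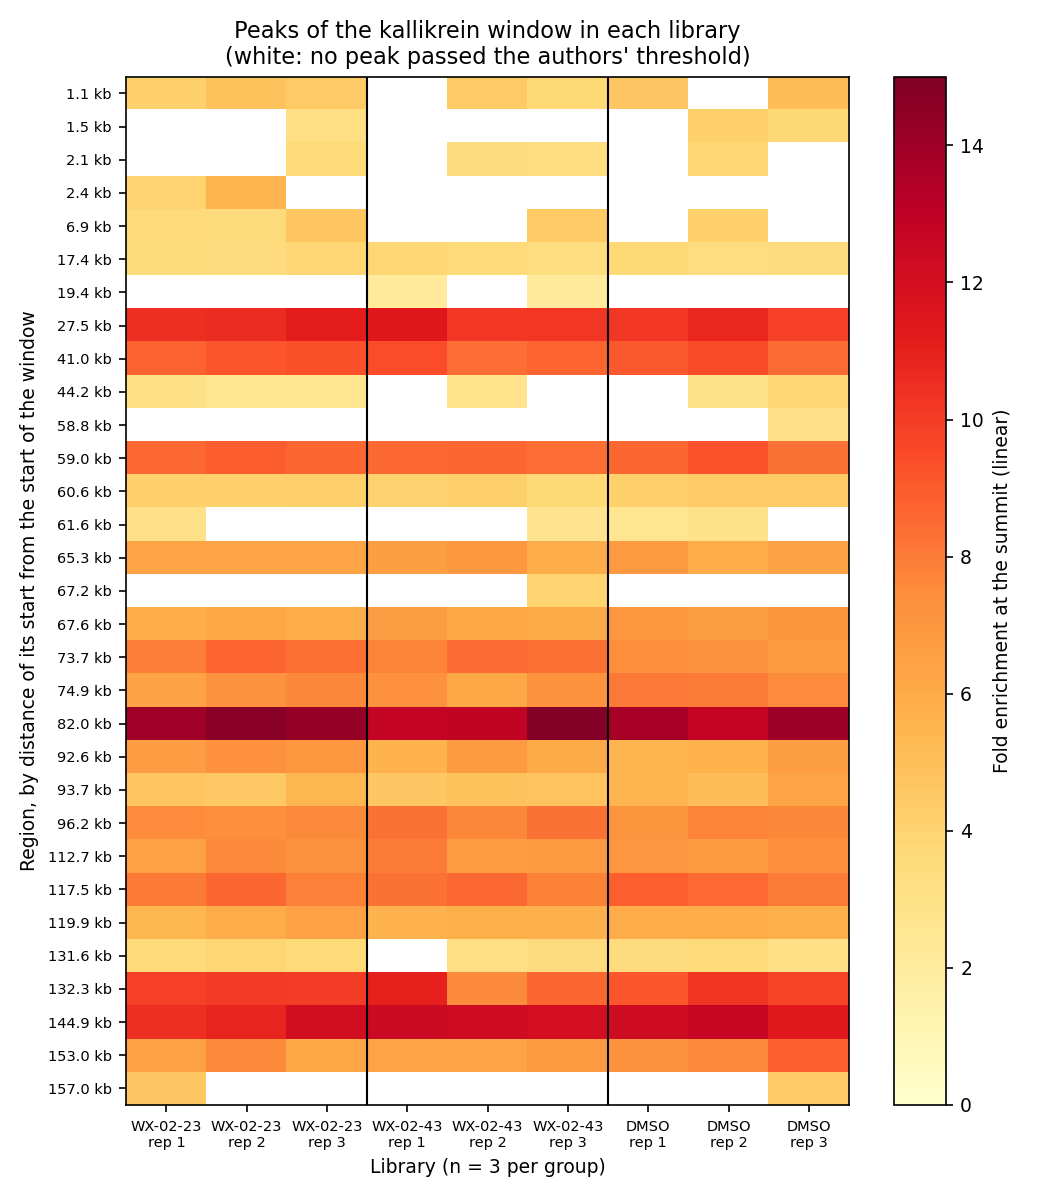
Peaks of the 9 libraries in the kallikrein window, 1 column per library and 1 row per region, with rows ordered along the chromosome. A filled cell marks a peak and its shade gives the authors' fold enrichment. The 19 regions held by all 9 libraries form unbroken rows, while the first 5 rows hold scattered peaks.

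The regions with the highest fold enrichment lay apart from each other along the locus. Fold enrichment is the authors' ratio of the fragments stacked at the summit to the local background of the same library. The form that matched the deposited values adds the same small constant to the stack and to the background. A fold is therefore lower than the plain quotient of the stack and background printed for it. Fragments here means the units that the peak caller stacked, which may be fragments, reads or cut sites, as its settings are not stated. The strongest region was the 82.0-kb region (chr19:51361966-51362740, 775 bp), with a mean fold of 13.79 over the 9 libraries, higher than 92.1% of the 59637 regions held by all 9. Its folds were 14.05, 14.68 and 14.26 in WX-02-23 samples, 12.8, 12.88 and 14.83 in WX-02-43 samples and 13.79, 12.73 and 14.09 in DMSO samples. The groups overlapped, with the highest value and 2 of the 3 lowest in WX-02-43 samples. The stack at its summit, solved from the deposited fold and p, was 64 to 91 fragments over a background of 4.08 to 5.55.

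The 144.9-kb region (chr19:51424900-51426033) followed, with a mean fold of 11.82. It had folds of 10.46, 10.86 and 12.08 in WX-02-23 samples, 12.44, 12.29 and 12.02 in WX-02-43 samples and 12.3, 12.62 and 11.3 in DMSO samples, so 2 of the 3 WX-02-23 samples lay below the other 7 libraries. The 27.5-kb region (chr19:51307487-51308579) had folds of 10.45, 10.58 and 11.08 in WX-02-23 samples, 11.37, 10.14 and 10.14 in WX-02-43 samples and 10.19, 10.73 and 9.871 in DMSO samples. These ranges overlapped in all 3 groups. The 132.3-kb region (chr19:51412261-51413122) had folds of 9.851, 10.05 and 9.965 in WX-02-23 samples, 10.97, 7.595 and 8.617 in WX-02-43 samples and 9.144, 10.24 and 9.706 in DMSO samples. Its lowest and highest values were both in WX-02-43 samples. The 41.0-kb region (chr19:51320960-51322161) had folds of 8.789, 9.144 and 9.263 in WX-02-23 samples, 9.394, 8.384 and 8.672 in WX-02-43 samples and 9.028, 9.438 and 8.487 in DMSO samples, again with overlap between all groups.

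The other 14 regions held by all 9 libraries had mean folds of 8.661 or less. The weakest by fold was the 17.4-kb region (chr19:51297429-51299192), which at 1764 bp was also the widest. It had folds of 3.285 to 3.862, and 72 to 103 stacked fragments over a background of 19.8 to 29.4. Its stack overlapped that of the 82.0-kb region in height while its mean background was higher than that of 99.8% of all regions held by all 9 libraries. A high background was common in the locus. The median background of the 19 regions was 7.5 to 10.3 fragments per library, against 2.28 to 3.06 over all regions held by all 9. Of the 19 regions, 16 had a higher mean background than 84.7% or more of those regions, and the exceptions were the 82.0-kb region (72.4%), the 144.9-kb region (61.6%) and the 153.0-kb region (42.7%). Among regions held by all 9 libraries, the median of the mean folds was 7.284 in the locus, against 8.821 over the whole series. It was 7.475 in the flank on the side of lower coordinates and 8.694 in that on the side of higher coordinates.

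**Figure D2:**
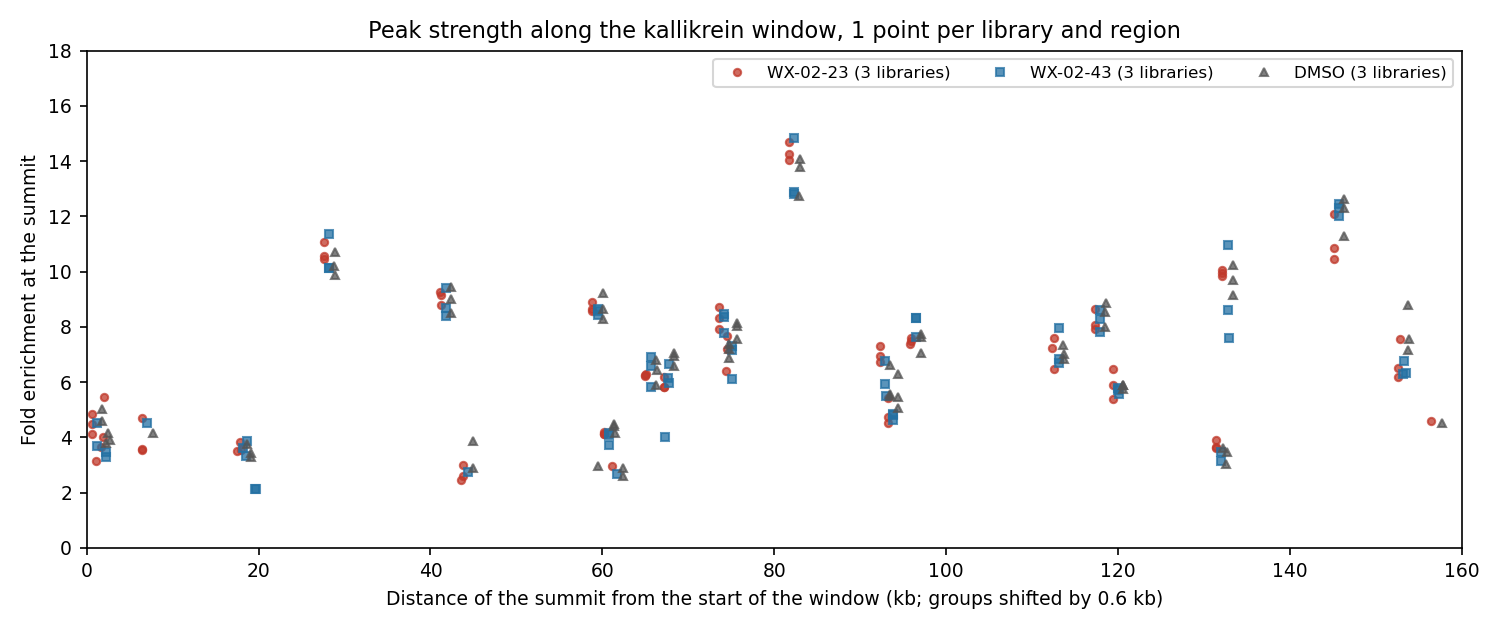
Fold enrichment (authors' ratio, linear axis) against the distance from the start of the kallikrein window in kb, 1 point per library and region, coloured by group. The 82.0-kb region stands highest, with folds of 12.73 to 14.83, and the colours overlap in most regions.

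Several regions stood close together. The 73.7-kb region (chr19:51353672-51354755) and the 74.9-kb region (chr19:51354883-51355518) were 127 bp apart, the shortest gap between neighbours held by all 9 libraries. The longest such gap was 16881 bp, between the 41.0-kb and 59.0-kb regions. Summits of a region lay close across libraries in most cases, for example within 59 bp in the 82.0-kb region and 36 bp in the 41.0-kb region, and were spread over 517 bp in the 17.4-kb region.

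The first comparison asked whether the compounds altered which regions were open. No region of the locus had a peak in all 3 samples of a compound and in none of the DMSO samples, or the reverse. Over all 128994 regions, 1.77% were gained in this sense with WX-02-23 against DMSO and 0.739% were lost. With WX-02-43 against DMSO, 0.331% were gained and 0.366% lost. Between the compounds, 1.43% of all regions had peaks in the 3 WX-02-23 samples and no WX-02-43 sample, 0.806% had the reverse, and again none lay in the locus.

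WX-02-23 samples held 26, 24 and 25 of the 31 regions (mean 25.0 ± 1.0, SD, n = 3), WX-02-43 samples held 20, 23 and 26 (23.0 ± 3.0) and DMSO samples held 22, 25 and 25 (24.0 ± 1.73). The ranges overlapped. The difference was 1.0 region for WX-02-23 minus DMSO and −1.0 for WX-02-43 minus DMSO (exact permutation p = 0.7 for each, two-sided). It was 2.0 regions for WX-02-23 minus WX-02-43 (exact permutation p = 0.5), and the p adjusted over the 3 comparisons was 0.7 for each. Without WX-02-43 replicate 1, the difference for WX-02-43 minus DMSO was 0.5. With 3 samples against 3 the smallest p this test can give is 0.1. The lists held 105132, 92296 and 90673 peaks in WX-02-23 samples, 82318, 94508 and 97632 in WX-02-43 samples and 81962, 90196 and 101038 in DMSO samples, and the 2 shortest lists, of WX-02-43 replicate 1 and DMSO replicate 1, held the fewest regions. Among the other lists, those of 105132 and 97632 peaks held the most, 26 each, and that of 101038 peaks held 25. The list of 94508 peaks held 23, and those of 92296, 90673 and 90196 peaks held 24, 25 and 25. The part of list length in these counts was not tested. Lists shortened to equal length gave −0.67 regions for WX-02-23 minus DMSO, −1.33 for WX-02-43 minus DMSO and 0.67 for WX-02-23 minus WX-02-43.

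Peaks of the locus covered 15293, 14187 and 14216 bp in WX-02-23 samples, 12394, 13149 and 14588 bp in WX-02-43 samples and 12657, 14152 and 14608 bp in DMSO samples. The mean fold per peak in the same libraries was 6.289, 6.771 and 6.69 in WX-02-23 samples, 7.313, 6.638 and 6.423 in WX-02-43 samples and 7.032, 6.629 and 6.847 in DMSO samples. The 2 libraries that covered the least had the highest mean folds.

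The regions that differed most in presence were weak ones, which is partly built in, as presence means a peak past the authors' threshold. A peak in all 3 samples of one group and in at most 1 of the other was found for 1 of 31 regions between WX-02-23 and DMSO, against 5.96% of all regions, for 0 between WX-02-43 and DMSO, against 3%, and for 2 between the compounds, against 5.58%. The 6.9-kb region (chr19:51286882-51287159) was the one found in both of the comparisons that gave any. It had folds of 3.583, 3.531 and 4.697 in WX-02-23 samples, a single peak of 4.51 in WX-02-43 replicate 3 and a single peak of 4.157 in DMSO replicate 2. The 44.2-kb region (chr19:51324169-51324493) had folds of 2.99, 2.46 and 2.599 in WX-02-23 samples, 2.756 in WX-02-43 replicate 2, and 2.875 and 3.853 in DMSO replicates 2 and 3. A library without a peak had no call past the authors' threshold there, which is not the same as no signal.

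Among the other regions missing from some libraries, the 2.4-kb region (chr19:51282443-51282624) had peaks only in WX-02-23 replicates 1 and 2, with folds of 4.007 and 5.476. The 19.4-kb region (chr19:51299366-51299778) had peaks only in WX-02-43 replicates 1 and 3, with folds of 2.141 and 2.118. Neither was held by all 3 samples of a group. The 12 regions not held by all 9 libraries had stacks of 10 to 55 fragments, and their mean folds lay between 2.129 and 4.741.

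The second comparison asked whether the strength of the shared regions differed. Fold enrichment was taken as log2, centred on each library's median over the 59637 regions held by all 9 libraries, and tested with limma over all of them, with Benjamini-Hochberg adjustment. Only the 19 locus regions held by all 9 libraries could enter this fit, so it says nothing of the other 12. For WX-02-23 against DMSO, 0 of the 19 passed an adjusted p of 0.05, against 1.97% of all regions (506 higher and 671 lower). At an unadjusted p under 0.05, 0 of 19 passed, against 12.2% of all regions. For WX-02-43 against DMSO, 0 of 19 passed, against 0.00168% of all regions (1 region, lower), and at an unadjusted p under 0.05, 1 of 19 passed, against 7.43%. For WX-02-23 against WX-02-43, 0 of 19 passed, against 1.99% of all regions (366 higher and 823 lower), and at an unadjusted p under 0.05, 1 of 19 passed, against 13.2%. The splits over all regions turned under other settings. For WX-02-23 against WX-02-43 there were 311 higher and 210 lower without centring, and for WX-02-23 against DMSO there were 2831 higher and 1976 lower with stacked fragments as the measure, 1640 and 1538 with −log10 p, and 620 and 573 with only these 2 groups in the fit.

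The 95% intervals of the 19 regions, each for 1 region and not adjusted for their number, reached no further than −0.50 to 0.52 on the log2 scale for WX-02-23 minus DMSO, a factor of at most 1.44. They reached −0.47 to 0.55 for WX-02-43 minus DMSO, a factor of at most 1.46, and −0.45 to 0.40 for WX-02-23 minus WX-02-43, a factor of at most 1.37. The smallest absolute log2 difference of any called region was 0.31 for WX-02-23 minus DMSO, 1.03 for WX-02-43 minus DMSO and 0.25 for WX-02-23 minus WX-02-43, and every locus difference was smaller than that. A count of 0 calls therefore does not show that the locus regions were the same between groups. Adjusted p-values of limma lay between 0.508 and 1, between 0.641 and 0.977 and between 0.321 and 0.996 for these 3 comparisons.

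For WX-02-23 minus DMSO the median log2 difference of the 19 regions was −0.0045, with 8 positive and 11 negative values between −0.22 and 0.24, against a median of −0.0054 over all regions. For WX-02-43 minus DMSO it was 0.0566, with 13 positive and 6 negative values between −0.19 and 0.28, against 0.0179 over all regions. For WX-02-23 minus WX-02-43 it was −0.0632, with 2 positive and 17 negative values between −0.23 and 0.12, against −0.0218 over all regions. These splits changed with the scaling. Without centring there were 11 positive and 8 negative values for WX-02-23 minus DMSO, 8 and 11 for WX-02-43 minus DMSO and 13 and 6 for WX-02-23 minus WX-02-43. They also changed with single libraries: without DMSO replicate 3 the median was −0.0642 for WX-02-23 minus DMSO and −0.0062 for WX-02-43 minus DMSO, and without DMSO replicate 1 it was 0.0479 and 0.1374. The comparisons with DMSO share their DMSO samples, so their values are not independent of each other. In the flanks, 0 of 9 and 0 of 8 regions passed the adjusted p of limma in each comparison, and at most 1 in a flank had an unadjusted p under 0.05.

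**Figure D3:**
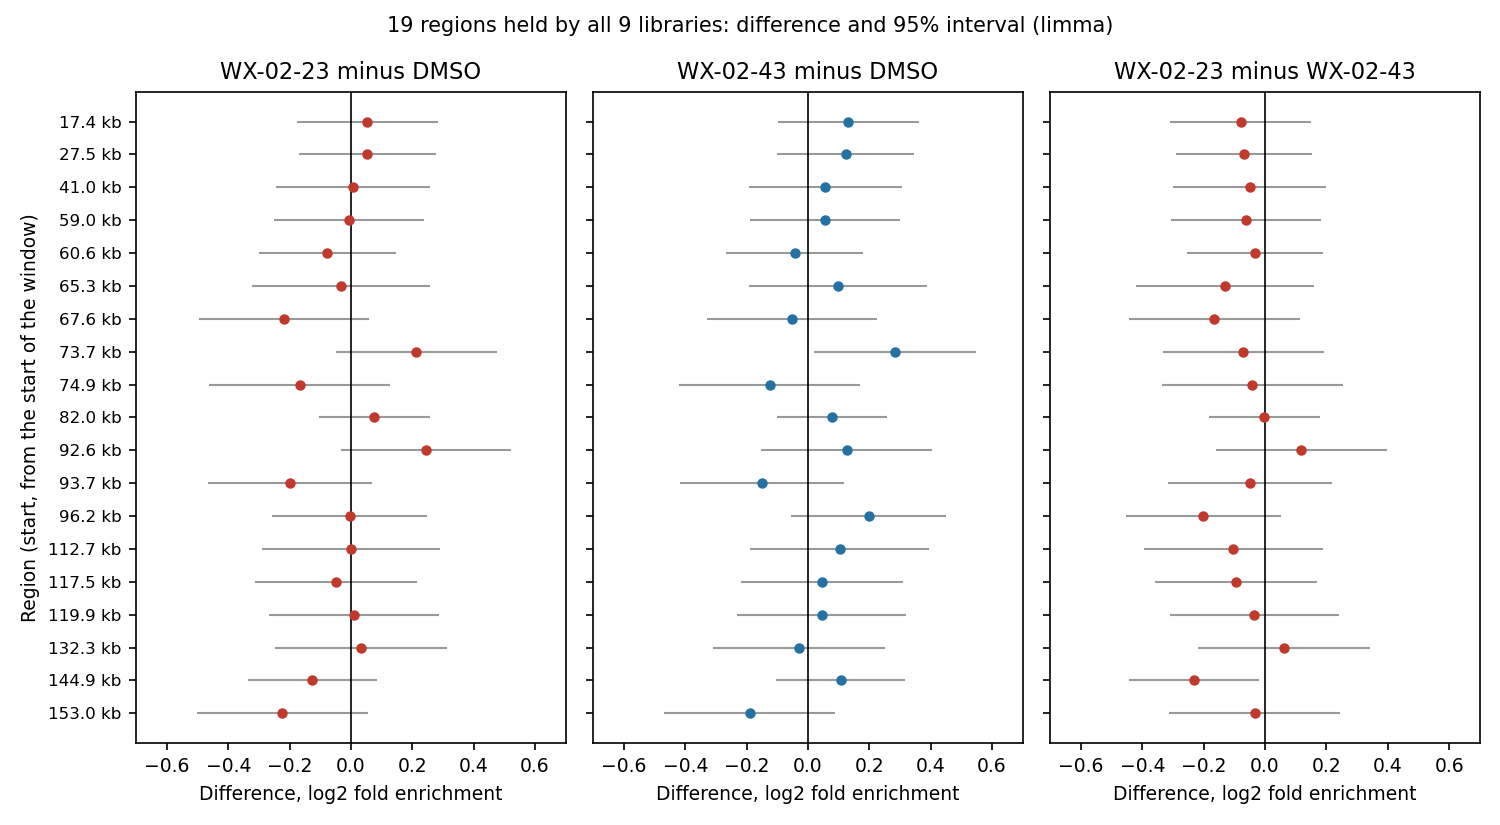
Log2 difference in centred fold enrichment with its 95% interval from limma, for the 19 regions held by all 9 libraries, 1 panel per comparison. The 92.6-kb region has the highest value for WX-02-23 minus DMSO (0.24), the 73.7-kb region the highest for WX-02-43 minus DMSO (0.28) and the 144.9-kb region the lowest for WX-02-23 minus WX-02-43 (−0.23).

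Across the 9 libraries, the SD of centred log2 fold of a locus region was 0.133 in the median (0.070 to 0.161). It was 0.155 over all regions held by all 9. The most and the least variable of the 19 were the 132.3-kb region and the 60.6-kb region (chr19:51340627-51340945).

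The 73.7-kb region had the smallest p in the comparison of WX-02-43 with DMSO. Its folds were 7.94, 8.706 and 8.338 in WX-02-23 samples (mean 8.328 ± 0.383, SD, n = 3), 7.776, 8.476 and 8.376 in WX-02-43 samples (8.209 ± 0.378) and 7.386, 7.187 and 6.858 in DMSO samples (7.144 ± 0.267). All 6 compound samples lay above all 3 DMSO samples before centring, and after centring this held for WX-02-43 but not for WX-02-23. The log2 difference was 0.28 for WX-02-43 minus DMSO (95% interval 0.02 to 0.55, limma adjusted p = 0.641) and 0.21 for WX-02-23 minus DMSO (−0.05 to 0.48, limma adjusted p = 0.563). For WX-02-23 minus WX-02-43 it was −0.07 (−0.33 to 0.19, limma adjusted p = 0.880). The neighbouring 74.9-kb region had folds of 6.41, 7.202 and 7.668 in WX-02-23 samples, 7.292, 6.104 and 7.172 in WX-02-43 samples and 8.14, 8.022 and 7.545 in DMSO samples, with differences of opposite sign, −0.17 for WX-02-23 minus DMSO and −0.12 for WX-02-43 minus DMSO (limma adjusted p = 0.768 and 0.884).

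The 92.6-kb region (chr19:51372601-51373220) had the smallest p in the comparison of WX-02-23 with DMSO. It had folds of 6.737, 7.316 and 6.946 in WX-02-23 samples (6.999 ± 0.293), 5.513, 6.767 and 5.931 in WX-02-43 samples (6.07 ± 0.638) and 5.496, 5.575 and 6.617 in DMSO samples (5.896 ± 0.626). Every WX-02-23 sample lay above every DMSO sample, while WX-02-43 and DMSO samples overlapped. The log2 difference was 0.24 for WX-02-23 minus DMSO (95% interval −0.03 to 0.52, limma adjusted p = 0.508) and 0.13 for WX-02-43 minus DMSO (−0.15 to 0.40, limma adjusted p = 0.876).

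The 153.0-kb region (chr19:51433031-51433751) was among the 3 smallest p-values against DMSO for both compounds. Its folds were 6.494, 7.566 and 6.197 in WX-02-23 samples, 6.312, 6.316 and 6.774 in WX-02-43 samples and 7.166, 7.559 and 8.807 in DMSO samples. The highest WX-02-23 sample lay just above the middle DMSO sample, and all WX-02-43 samples lay below all DMSO samples. The log2 difference was −0.22 for WX-02-23 minus DMSO (95% interval −0.50 to 0.06, limma adjusted p = 0.575) and −0.19 for WX-02-43 minus DMSO (−0.47 to 0.09, limma adjusted p = 0.801). With stacked fragments as the measure these values were −0.098 and −0.295. Its stacks of 18 to 30 fragments were the smallest of the 19 regions.

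Between the compounds, the 144.9-kb region differed most, with a log2 difference of −0.23 for WX-02-23 minus WX-02-43 (95% interval −0.44 to −0.02, limma adjusted p = 0.321). Its stacks were 57, 48 and 58 fragments in WX-02-23 samples and 48, 55 and 55 in WX-02-43 samples, which overlapped. With stacked fragments as the measure its difference was 0.032, and without centring the fold gave −0.14. The 96.2-kb region (chr19:51376184-51376745) had folds of 7.497, 7.367 and 7.59 in WX-02-23 samples, 8.312, 7.642 and 8.306 in WX-02-43 samples and 7.042, 7.745 and 7.64 in DMSO samples. Its log2 difference was −0.20 for WX-02-23 minus WX-02-43 (−0.45 to 0.05, limma adjusted p = 0.521) and 0.20 for WX-02-43 minus DMSO (−0.06 to 0.45, limma adjusted p = 0.768), and −0.111 and 0.114 without centring. The 67.6-kb region (chr19:51347564-51347913) had folds of 5.81, 6.175 and 5.829 in WX-02-23 samples, 6.671, 6.144 and 5.954 in WX-02-43 samples and 6.955, 6.581 and 7.073 in DMSO samples. It gave −0.17 for WX-02-23 minus WX-02-43 (−0.44 to 0.11, limma adjusted p = 0.674), which became −0.096 without WX-02-43 replicate 1, −0.074 without centring and −0.044 with stacked fragments.

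**Figure D4:**
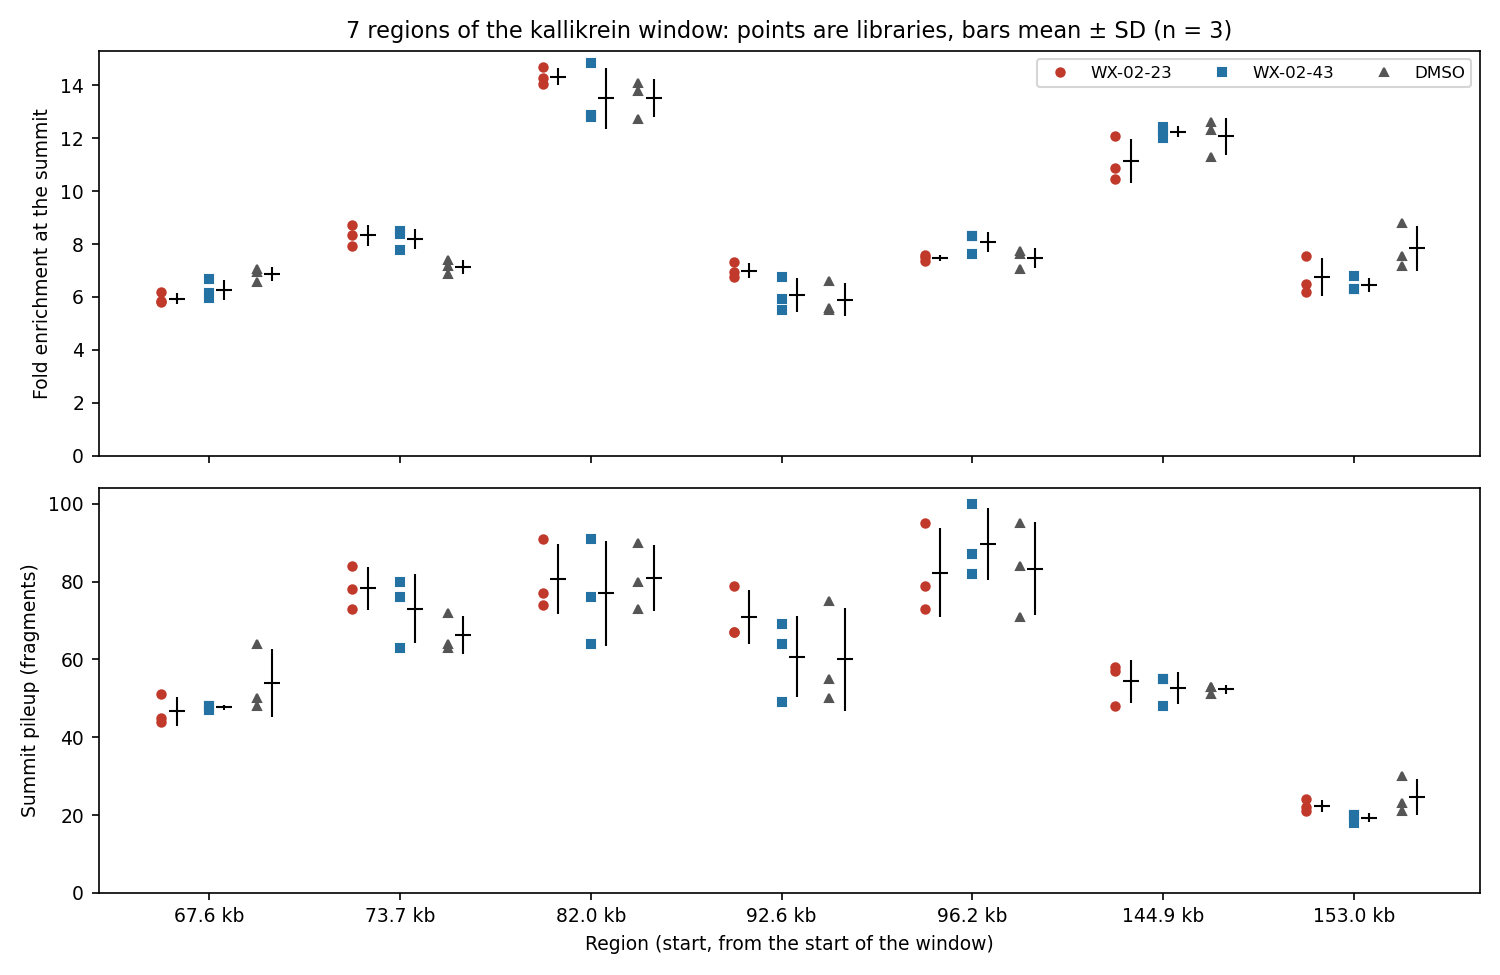
Fold enrichment (authors' ratio, upper panel) and stacked fragments at the summit (lower panel) of the 82.0-kb region and of the regions with the 3 smallest p-values in each comparison, 1 point per library, with bars for mean ± SD (n = 3) and groups from WX-02-23 through WX-02-43 to DMSO. In the 92.6-kb region the folds of WX-02-23 samples, at 6.737 to 7.316, lie above those of DMSO samples, at 5.496 to 6.617, and in the 82.0-kb region the groups overlap.

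Few locus regions had groups that did not overlap on the centred scale, and with counts this small their shares lay near those over all regions. For WX-02-23 against DMSO there was 1 such region of 19 with higher values (the 92.6-kb region), against 7.1% of all regions, and 2 with lower values (the 60.6-kb and 67.6-kb regions), against 8.62%. For WX-02-43 against DMSO there were 2 with higher values (the 73.7-kb and 96.2-kb regions), against 6.77%, and 1 with lower values (the 153.0-kb region), against 5.45%. For WX-02-23 against WX-02-43 there were 0 with higher values, against 7.13%, and 2 with lower values (the 96.2-kb and 144.9-kb regions), against 11%.

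A fit of the stacked fragments in place of the fold, a choice made after seeing the data, gave other calls in 1 comparison. The stack at the summit was centred and tested in the same way. For WX-02-23 against DMSO, 2 of 19 regions passed, against 8.06% of all regions. The 92.6-kb region was higher by 0.29 on the log2 scale (95% interval 0.10 to 0.48, limma adjusted p = 0.0347), and the 73.7-kb region by 0.27 (0.09 to 0.45, limma adjusted p = 0.0412). The stacks of the 73.7-kb region were 84, 73 and 78 fragments in WX-02-23 samples, 63, 76 and 80 in WX-02-43 samples and 64, 63 and 72 in DMSO samples, while each library's median over all regions was 38, 29 and 32 in WX-02-23 samples, 29, 34 and 35 in WX-02-43 samples and 30, 33 and 38 in DMSO samples. Those of the 92.6-kb region were 79, 67 and 67 in WX-02-23 samples, 49, 69 and 64 in WX-02-43 samples and 50, 55 and 75 in DMSO samples, which overlapped before centring. When each of the 9 libraries was left out in turn, the 73.7-kb region passed in 3 of 9 fits (limma adjusted p of 0.0374 to 0.318) and the 92.6-kb region in 2 of 9 (0.024 to 0.328). The differences themselves lay between 0.20 and 0.31 for the 73.7-kb region and between 0.21 and 0.35 for the 92.6-kb region in these fits. For WX-02-43 against DMSO 0 of 19 passed, against 0.349% of all regions, and for WX-02-23 against WX-02-43 0 of 19 passed, against 6.68%. For WX-02-43 minus DMSO the 73.7-kb region gave 0.17 by this measure. At an unadjusted p under 0.05, 2 of 19 passed in each comparison, against 17.5% of all regions for WX-02-23 against DMSO, 9.3% for WX-02-43 against DMSO and 15.9% for WX-02-23 against WX-02-43. The call of the 73.7-kb and 92.6-kb regions rested on the measure chosen.

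Over the 9 libraries, 3 regions outside the locus had centred fold values most like those of the 82.0-kb region. They lay at chr7:148981919-148983035 (Pearson r = 0.960), chr13:26827853-26829210 (r = 0.949) and chr5:113601155-113601777 (r = 0.945), and 17 of the other 59636 regions had an r above 0.9. Within the locus the highest r was 0.631, for the 73.7-kb region. These are descriptions over 9 libraries, which fall into 3 treatment groups and differ in depth. The 3 regions were picked as the highest of 59636 values of r, and unrelated regions can reach such values over 9 libraries. A link between them and the locus was not tested.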

How the data were processed

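ATAC-seq libraries of 22Rv1 cells were compared in 3 groups of 3. The submitters' processing notes name Bowtie2, MACS2 and the hg19 build; the sources used here state neither versions nor settings. The authors' deposited lists give each peak a score, a fold (a ratio over local background), and a −log10 p and −log10 q at its summit, called on 1 library each. No list held a peak with a −log10 q below 2.0. The score was not used.

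Peaks on the 22 autosomes and the X chromosome that shared at least 1 bp were merged, and the peak with the largest −log10 p stood for a region in a library. Log2 fold, centred on the median of each library, was tested with limma 3.58.1 in R 4.3.3 over 59637 regions held by all 9 libraries, with 1 spread for the 3 groups. Folds are set within a library, so differences between libraries also carry its background. Read totals were not analysed here. Stacked fragments were solved from fold and p under a Poisson model, and a whole number matched the deposited −log10 p within 0.002 for 100.0% of 835755 peaks, against 0.95% with p-values shuffled within a list on chromosome 19. On simulated data the fit did not call the smaller of the changes put in and called most of the larger ones. The spread and the number of changed regions were set for the simulation. It therefore does not give the smallest change that the fit could call in the real data. Exact permutation tests went through every split of the samples with numpy 2.4.6, and scipy 1.17.1 was used for the Poisson model.

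Values by sample are given for the 5 regions with the highest mean fold, the 3 with the smallest p in each comparison, and regions held by all samples of one group and at most 1 of another. The other regions shown were picked after their values were seen. The locus, lists and motifs were chosen with earlier results of these data known. Alternatives varied the peak threshold, list length, overlap, centring, measure, representative peak, low values, groups in the fit, replicate block and libraries.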

Additional observations from a re-analysis of the deposited data

How the results depend on the processing

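The median log2 difference of the 19 locus regions changed sign under several settings. It was −0.004 for WX-02-23 minus DMSO and 0.003 without centring, 0.057 for WX-02-43 minus DMSO and −0.027 without centring, and −0.063 for WX-02-23 minus WX-02-43 and 0.028 without centring. With a library left out it lay between −0.064 and 0.048, between −0.006 and 0.137 and between −0.092 and −0.021 in that order of comparisons. The number of locus regions held differed by −0.67 for WX-02-23 minus DMSO with a −log10 q of at least 5 and by −0.67 with lists of equal length. With a library left out, that difference lay between 0.0 and 1.5 for WX-02-23 minus DMSO, between −2.5 and 0.5 for WX-02-43 minus DMSO (0.5 without WX-02-43 replicate 1, the others at or below 0) and between 0.5 and 3.5 for WX-02-23 minus WX-02-43. Regions gained ranged from 0 to 1 in each comparison, and regions lost from 0 to 1 for WX-02-43 minus DMSO and WX-02-23 minus WX-02-43, with a library left out. A gain appeared without WX-02-23 replicate 3 or DMSO replicate 2 for WX-02-23 minus DMSO, without WX-02-43 replicate 2 for WX-02-43 minus DMSO, and, between the compounds, on leaving out WX-02-23 replicate 3 or either of WX-02-43 replicates 2 and 3. A loss appeared without DMSO replicate 1 and without WX-02-43 replicate 2 in the comparisons named.

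Calls over all regions for WX-02-23 minus DMSO numbered 1177, against 409 with 50% of the region covered, 3178 with −log10 p as the measure, 531 without centring and 4807 (2831 higher) with stacked fragments. For WX-02-43 minus DMSO they numbered 1, against 0 with a −log10 q of at least 5, 44 with −log10 p, 0 without centring and 208 with stacked fragments. For WX-02-23 minus WX-02-43 they numbered 1189, against 385, 2824, 521 and 3984 under the same changes as for WX-02-23 minus DMSO. With a library left out they lay between 739 and 1156 for WX-02-23 minus DMSO (739 without DMSO replicate 1), between 0 and 4 for WX-02-43 minus DMSO (4 without DMSO replicate 3), and between 636 and 1248 for WX-02-23 minus WX-02-43 (723, 693 and 636 without WX-02-43 replicates 1, 2 and 3). The number of locus regions called was 0 under every alternative except stacked fragments, which called 2 for WX-02-23 minus DMSO. The 144.9-kb region had a log2 difference of 0.032 for WX-02-23 minus WX-02-43 with stacked fragments (limma adjusted p = 0.948). The causes were not tested.

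Deviations from the group means had correlations of −0.12 to 0.136 in the 9 pairs of samples with the same replicate number, 1 above 0.1. These were positive for WX-02-43 with DMSO (0.136, 0.022 and 0.077) and negative in all pairs with WX-02-23. Of the 9 libraries, 3 correlated best with their own number. Whether samples of the same number shared a batch was not tested. The replicate block gave 1194 calls for WX-02-23 minus DMSO, 1 for WX-02-43 minus DMSO and 1263 for WX-02-23 minus WX-02-43, with 0 in the locus.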
